A study of Mus musculus with 2 samples.

Results

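The mitosis and cytokinesis genes examined here are 47 genes that build the spindle, attach and separate the chromosomes and divide the cell. They were taken by name, as every probe set whose only annotated gene symbol was 1 of the 47, which gave 109 of the 34945 probe sets that name a single gene and 47 of 18193 genes. RNA came from cartilage of wild-type C57BL/6J mouse embryos at E17.5. For round chondrocytes the study's methods name sections of femoral cartilage. The columnar/hypertrophic array was hybridised with RNA from portions rich in columnar and hypertrophic chondrocytes, and the round array with RNA from portions rich in round chondrocytes. On each of the 2 arrays the RNA of 3 portions had been mixed, so that each group is 1 array with no replicate error, and no difference below was tested. Values are MAS5 signals, a linear measure of hybridisation for each probe set, and differences are log2 values of the columnar/hypertrophic signal over the round signal. In such bulk samples, fewer cells of a type and less RNA per cell cannot be told apart.

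A cell that enters mitosis condenses its chromosomes, captures them on spindle microtubules at the kinetochores, and waits until every chromosome is attached. The anaphase-promoting complex then marks securin and cyclin B for destruction, the sister chromatids part, and a contractile ring cuts the cell at the midzone of the spindle. In the growth plate, round chondrocytes divide slowly, flat columnar chondrocytes divide in stacks and drive the lengthening of the bone, and hypertrophic chondrocytes have left the cell cycle. The columnar/hypertrophic portion therefore joined a dividing zone and a zone without division, and the columnar cells were not measured apart.

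The floor was a signal of 100.5, the 95th percentile of chemosensory receptor genes, which cartilage should not express. Most markers of hypertrophic and round chondrocytes followed the labels of the arrays, and those of columnar chondrocytes were divided. Of 7 markers of hypertrophic chondrocytes with a probe set, the columnar/hypertrophic array was 2-fold or more above the round array for 5 and below it by as much for 0. Of 9 markers of round chondrocytes, 8 were at least 2-fold lower and 0 higher. Of 4 markers of columnar chondrocytes, Fgfr3 (21111 on the columnar/hypertrophic array and 10093 on the round array) and Prkg2 (5124 and 320, in the same order) were 2-fold or more higher, while Ucma (4115 and 17706) was 4.30-fold lower. The 8 general chondrocyte markers were within 2-fold. Perichondrium and tendon markers were mostly lower on the columnar/hypertrophic array, with 5 of 9 at least 2-fold lower. Their summed signals were 51610 on the columnar/hypertrophic array and 105000 on the round array. Lum went the other way within 2-fold, with 25256 and 22381 in the same order, and 1 marker lay under the floor on both arrays. Of 4 osteoblast markers, 2 were 2-fold or more higher, Sp7 with 1940 on the columnar/hypertrophic array and 170 on the round array, and Alpl with 455 on the columnar/hypertrophic array and a signal under the floor on the round array. All 4 erythroid markers and all 6 endothelial markers lay under the floor on both arrays. Of 7 leukocyte markers, 4 lay under it on both, among them Ptprc, while Lyz2 had 293 on the columnar/hypertrophic array and 130 on the round array (2.25-fold), Csf1r 129 and 190, and Cd68 a signal under the floor and 130. Of 5 osteoclast markers, Ctsk alone was measured, with 522 on the columnar/hypertrophic array and 803 on the round array. Of 7 skeletal muscle markers, 4 lay under the floor on both arrays, and Tnnt3 had 429 on the columnar/hypertrophic array and a signal under the floor on the round array. The part of these other cell types in the results below was not tested.

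The mitosis and cytokinesis genes had nearly the same signals on both arrays. Of the 47 genes, 46 exceeded the floor on each array, and none of the 46 differed by 2-fold. Across all 11703 measured genes, 10.7% differed by at least 2-fold in either direction, and among the 7899 genes within the signal range of the members 9.19% did. At the smaller step of 1.5-fold, 1 member passed (Kif4, higher on the columnar/hypertrophic array), against 11.7% of all measured genes higher, 15.8% lower and 27.5% in either direction. The median difference of the 46 members was 0.10, with the middle 50% between -0.15 and 0.29, while over the 10235 genes that exceeded the floor on each array the median was -0.03, with the middle 50% between -0.365 and 0.30. The SD of the differences was 0.27 for the members and 0.65 for all genes. For scale, different probe sets of the same gene differed with an SD of 0.37 over 4825 genes. This is a technical spread and not a spread between animals. Of the 46 members, 38 lay closer to 0 than that SD, and so did the middle 50% of all genes. The exact share of all genes is not given here. Across the 46 members the log2 signals of the arrays correlated with Pearson's r of 0.97 and Spearman's rho of 0.97, and across all 10235 genes r was 0.93. These are correlations across genes of the same pair of arrays, in which the affinity of each probe set is shared, and genes are not independent replicates.

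**Figure D1:**
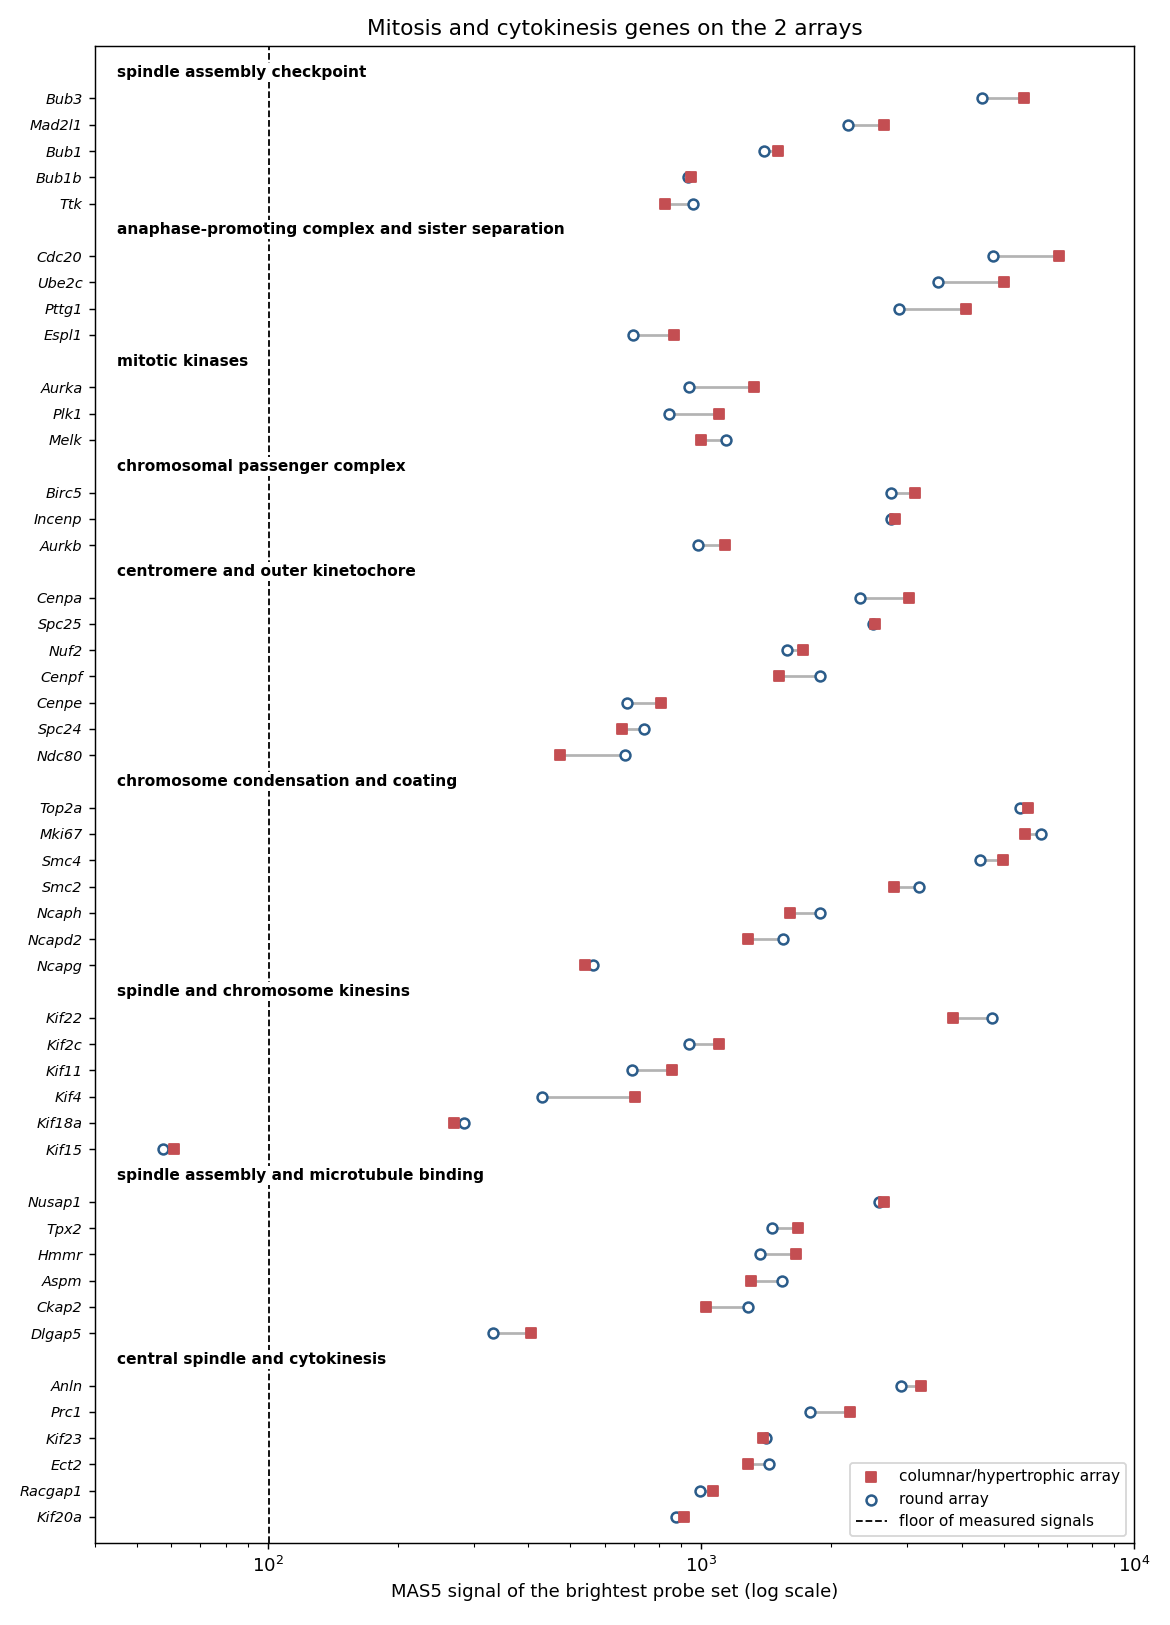
MAS5 signal (horizontal, log scale) of the brightest probe set of each of the 47 genes on the columnar/hypertrophic array (red squares) and the round array (open blue circles), 1 array each, grouped by role, and a dashed line at the floor of 100.5. The paired points lie close together in every role, Kif4 has the widest gap (705 on the columnar/hypertrophic array and 429 on the round array), and Kif15 lies under the floor on both arrays.

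The sign of these small differences depended on how the arrays were scaled. As deposited, 30 of the 46 members (65.2%) lay above 0 and 16 below, while 47.7% of all genes lay above 0. Scaling to equal medians moved the median of all genes by 0.27, and then 42 members (91.3%) lay above 0 and 4 below, beside 68.4% of all genes. The 4 that stayed below 0 were Ndc80, Ckap2, Cenpf and Kif22, and the other 12 turned sign. Quantile normalization and lowess centring each turned the sign of 6 members (Incenp, Kif18a, Ncapg, Nusap1, Spc25 and Top2a). Set against the median of all genes under the same scaling, the members' median was 0.13 higher as deposited, 0.14 with equal medians, 0.09 with quantile normalization and 0.08 after lowess centring. With equal medians 11 members passed 1.5-fold upwards, as did 23.2% of all measured genes, and none passed 2-fold.

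**Figure D2:**
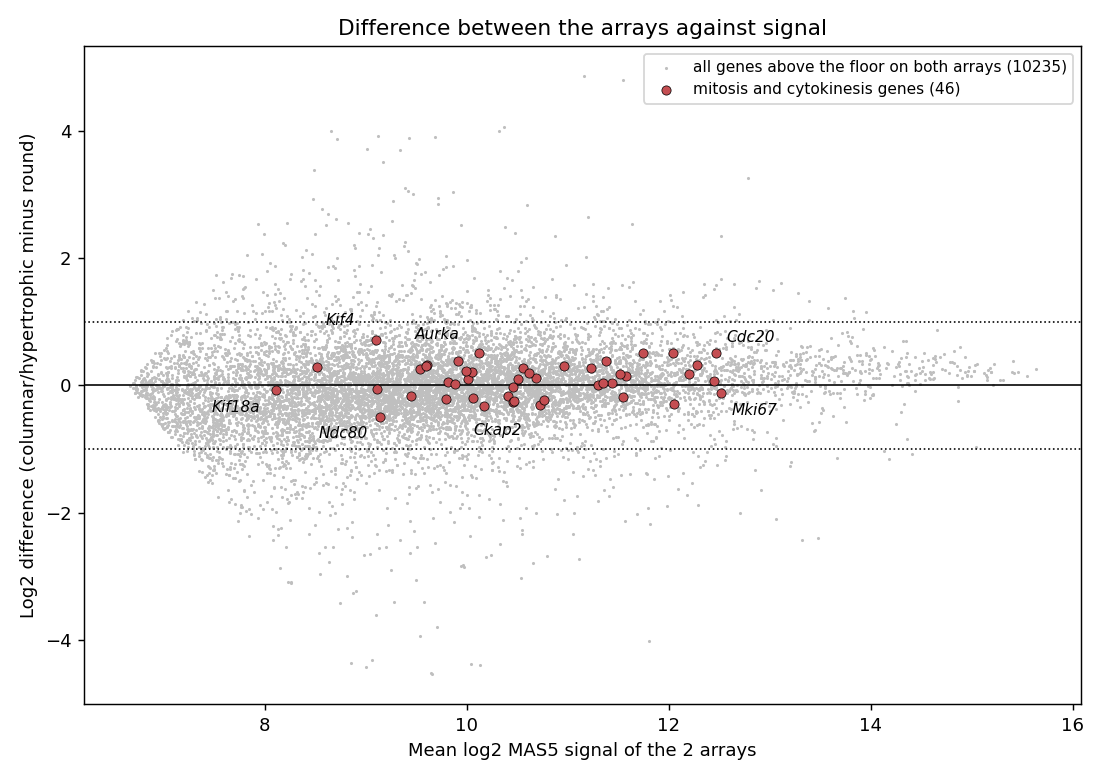
Log2 difference (vertical, columnar/hypertrophic minus round) against the mean log2 signal of the arrays (horizontal) for 10235 genes that exceeded the floor on each array (grey) and 46 mitosis and cytokinesis genes (red), 1 point per gene, with dotted lines at 2-fold and a solid line at 0. All red points lie between the dotted lines, from -0.49 for Ndc80 to 0.72 for Kif4, while grey points at the same signals reach far outside them.

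Mitotic genes are known to share a promoter layout. The MuvB complex binds the cell cycle genes homology region (CHR) close to the start of transcription through its LIN54 subunit, keeps the genes silent in resting cells together with E2F4 and the RB-like proteins, and drives them with B-MYB and FOXM1 before mitosis, while NF-Y binds CCAAT boxes a little further upstream. RefSeq promoter windows of build GRCm38.p6, from 250 bases before to 50 bases after the start site, were matched by symbol for 40 of the 47 genes, with the first listed window used where a gene had several. A CHR, read as TTTGAA or TTCGAA on either strand, was found in 31 of the 40 windows (77.5%), against 18.2% of 17492 protein-coding promoters of the same length. At least 1 CCAAT, read on either strand, was found in 28 (70.0%), against 39.0%. Both motifs together were found in 27 (67.5%), against 7.43%. The words of the motifs can overlap by an end base at most, and the median GC content was 58.8% in the members and 56.3% in all protein-coding promoters. The CHR words of the members lay close to the start site: 28 of 41 matches (68.3%) began in the last 50 bases before it or after it, against 802 of 3645 matches in all protein-coding promoters. CCAAT words lay from 130 to 31 bases before the start site in 30 of the members' 60 matches and in 47.7% of all 10227. In the windows of 57 other mitosis genes, CHR words were found in 61.4%, CCAAT words in 64.9% and both in 40.4%. In those of 39 DNA replication genes, CHR words were found in 17.9%, CCAAT words in 66.7% and both in 15.4%, and in those of 12 regulators CHR words were found in 33.3% and CCAAT words in 41.7%. A match describes the letters of a window and is not a measured binding site.

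Below are the windows of 4 of the 5 members with the highest differences and of the member with the lowest. They are shown because the CHR word occurs at both ends of the range of differences. Capitals mark the CHR and CCAAT words on either strand, and each window is read along the strand of its gene.
Kif4, chrX:100625815-100626114, plus strand: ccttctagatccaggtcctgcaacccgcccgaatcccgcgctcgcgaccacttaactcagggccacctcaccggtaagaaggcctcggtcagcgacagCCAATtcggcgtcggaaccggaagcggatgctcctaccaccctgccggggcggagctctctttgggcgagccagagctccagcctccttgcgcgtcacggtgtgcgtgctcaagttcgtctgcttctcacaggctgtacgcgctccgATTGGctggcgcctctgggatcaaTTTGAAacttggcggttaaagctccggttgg
Cdc20, chr4:118437294-118437593, minus strand: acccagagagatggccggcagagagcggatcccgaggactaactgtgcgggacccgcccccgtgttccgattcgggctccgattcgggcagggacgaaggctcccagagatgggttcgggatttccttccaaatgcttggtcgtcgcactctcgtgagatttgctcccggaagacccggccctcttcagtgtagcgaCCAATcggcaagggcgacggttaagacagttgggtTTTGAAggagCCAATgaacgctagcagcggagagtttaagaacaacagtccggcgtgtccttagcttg
Ube2c, chr2:164769679-164769978, plus strand: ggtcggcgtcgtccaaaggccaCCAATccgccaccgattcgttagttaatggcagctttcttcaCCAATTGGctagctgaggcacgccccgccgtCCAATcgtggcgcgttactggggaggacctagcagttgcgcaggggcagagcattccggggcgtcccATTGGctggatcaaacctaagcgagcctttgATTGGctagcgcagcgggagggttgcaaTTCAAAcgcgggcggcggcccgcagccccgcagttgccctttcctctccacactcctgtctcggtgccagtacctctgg
Aurka, chr2:172370521-172370820, minus strand: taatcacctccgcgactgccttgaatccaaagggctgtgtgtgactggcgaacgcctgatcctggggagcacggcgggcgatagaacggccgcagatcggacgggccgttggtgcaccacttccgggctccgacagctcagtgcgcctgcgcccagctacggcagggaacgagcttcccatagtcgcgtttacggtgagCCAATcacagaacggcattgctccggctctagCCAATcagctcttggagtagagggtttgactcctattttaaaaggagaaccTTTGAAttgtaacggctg
Ndc80, chr17:71526808-71527107, minus strand: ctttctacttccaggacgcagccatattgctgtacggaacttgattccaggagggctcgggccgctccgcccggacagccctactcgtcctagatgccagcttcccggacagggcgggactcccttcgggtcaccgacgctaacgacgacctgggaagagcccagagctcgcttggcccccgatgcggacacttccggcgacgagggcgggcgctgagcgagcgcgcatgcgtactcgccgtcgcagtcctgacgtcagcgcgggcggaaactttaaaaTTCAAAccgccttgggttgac
Cdc20 and Ube2c have their CHR word 18 and 29 bases before the start site, and Kif4, Aurka and Ndc80 have theirs 20, 33 and 30 bases into the transcript. Ube2c has 6 CCAAT words, of which a pair on opposite strands overlap, Kif4, Cdc20 and Aurka have 2 each, and Ndc80 has 0. The window of Pttg1, whose difference was close to that of Cdc20 and Ube2c, holds neither word. Among measured members, the 30 with a CHR in the window had a median difference of 0.08 (from -0.49 to 0.72) and the 9 without had 0.12 (from -0.23 to 0.51), so that the ranges overlapped.

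The spindle assembly checkpoint holds back anaphase while a kinetochore is unattached. Its 5 genes lay between -0.21 and 0.32. Bub3, a subunit that docks the checkpoint kinases on the kinetochore, had signals of 5566 on the columnar/hypertrophic array and 4449 on the round array (0.32), while 3 further probe sets gave -0.23, -0.18 and 0.50. Mad2l1, encoding the MAD2 protein that binds and restrains CDC20, had 2643 on the columnar/hypertrophic array and 2191 on the round array (0.27) from its only probe set. The kinase gene Bub1 (0.11) and the BUBR1 gene Bub1b (0.02) lay closer to 0, though the second probe set of Bub1 gave -0.48. Ttk, encoding the MPS1 kinase that starts checkpoint signalling, had 826 on the columnar/hypertrophic array and 957 on the round array (-0.21), and -0.84 by its second probe set. No direction was settled for Bub3 or Bub1.

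Of the 4 genes that open anaphase, 3 were among the 5 members with the highest differences. Cdc20, the activator of the anaphase-promoting complex, had signals of 6727 on the columnar/hypertrophic array and 4737 on the round array, 1.42-fold. A second probe set, with 3359 and 2334 on the columnar/hypertrophic and round arrays, gave 0.53, and a dim one gave -0.05. Ube2c, the ubiquitin-conjugating enzyme of that complex, had 5008 on the columnar/hypertrophic array and 3526 on the round array, also 1.42-fold. Pttg1, encoding securin, the inhibitor that the complex destroys, had 4090 on the columnar/hypertrophic array and 2868 on the round array, 1.43-fold, and its other probe sets gave 0.44 and -0.63. Espl1, encoding separase, the protease freed from securin to cut cohesin, had 869 on the columnar/hypertrophic array and 697 on the round array (0.32). All 4 were above 0 under each scaling, with a median of 0.51, and all were under 1.5-fold with the deposited scaling. With equal medians each passed 1.5-fold upwards, as did 23.2% of all measured genes. The mean over the probe sets of Pttg1 was 0.11, and no direction was settled for Pttg1.

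The mitotic kinases lay on both sides of 0. Aurka, encoding the Aurora kinase of centrosomes and spindle poles, had signals of 1328 on the columnar/hypertrophic array and 937 on the round array, 1.42-fold. Plk1, the Polo-like kinase gene for mitotic entry and centrosome maturation, had 1102 on the columnar/hypertrophic array and 846 on the round array (0.38). Melk, a kinase gene whose expression follows the cell cycle, had 1001 on the columnar/hypertrophic array and 1144 on the round array (-0.19, but above 0 with equal medians). The chromosomal passenger complex corrects faulty attachments and later guides cytokinesis. Its kinase gene Aurkb (0.21), its survivin gene Birc5 (0.18) and its scaffold gene Incenp (0.03) were within 0.2 of each other, other probe sets of Incenp gave -0.10, 0.07 and 0.56, and Birc5 had 3119 on the columnar/hypertrophic array and 2749 on the round array.

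Centromere and kinetochore genes lay on both sides of 0. Ndc80, encoding the microtubule-binding subunit of the outer kinetochore, had the lowest difference of all members, with signals of 474 on the columnar/hypertrophic array and 667 on the round array, 1.41-fold lower. This value came from its only probe set, and its partners in the same 4-subunit complex lay closer to 0. Nuf2 had 1720 on the columnar/hypertrophic array and 1582 on the round array (0.12), Spc25 2525 and 2504 (0.01) and Spc24 657 and 739 (-0.17), in the same order of arrays. Cenpa, the histone variant gene that marks centromeres, had 3030 on the columnar/hypertrophic array and 2334 on the round array (0.38), but its second probe set gave -0.41. Cenpf, a large protein gene of the outer corona, had 1518 on the columnar/hypertrophic array and 1881 on the round array (-0.31), while other probe sets gave -0.15 and 0.99. Cenpe, a kinetochore kinesin gene, had 808 on the columnar/hypertrophic array and 677 on the round array (0.26), and 931 and 448 by its other probe set, 2.08-fold. No direction was settled for Cenpa or Cenpf.

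Genes of chromosome condensation and coating had the lowest median of the roles, -0.12, and above 0 with equal medians. Mki67, encoding the Ki-67 antigen that coats mitotic chromosomes and marks dividing cells in histology, had signals of 5605 on the columnar/hypertrophic array and 6098 on the round array (-0.12). Top2a, the topoisomerase gene that untangles sister chromatids, had 5704 on the columnar/hypertrophic array and 5446 on the round array (0.07), but -0.48 by its second probe set. The condensin complex loops and compacts chromosomes, and the genes of its non-SMC subunits gave -0.27 for Ncapd2, -0.23 for Ncaph and -0.06 for Ncapg, whose second probe set gave 0.35. The second probe set of Ncapd2 had 277 on the columnar/hypertrophic array and 656 on the round array, 2.37-fold lower. Of the ATPase subunit genes, Smc4 had all its probe sets above 0, while Smc2 had probe sets on both sides of 0. Smc4 had 4982 on the columnar/hypertrophic array and 4416 on the round array (0.17), and its other probe sets gave 0.80 and 0.84. Smc2 had 2798 on the columnar/hypertrophic array and 3185 on the round array (-0.19) by the brightest probe set, and 3 further ones gave -0.69, 0.86 and 1.52. No direction was settled for Top2a, Ncapg or Smc2.

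Of the 6 spindle and chromosome kinesins, 5 were measured. Kif4, the chromokinesin gene for chromosome arms and the central spindle, had signals of 705 on the columnar/hypertrophic array and 429 on the round array, 1.64-fold higher and the highest difference of all 46 members, from its only probe set. Kif11, encoding the Eg5 motor that pushes spindle poles apart, had 860 on the columnar/hypertrophic array and 694 on the round array (0.31), and 0.08 and 0.28 by its other probe sets. Kif2c, a microtubule-depolymerising motor gene of the centromere, gave 0.23, and Kif18a, a motor gene that limits chromosome oscillation, had 270 on the columnar/hypertrophic array and 284 on the round array (-0.07). Kif22, another chromokinesin gene, had 3818 on the columnar/hypertrophic array and 4689 on the round array (-0.30), and -0.31 and 0.35 by its other probe sets. No direction was settled for Kif22. Kif15, encoding a motor that can stand in for Eg5, was under the floor on both arrays, with 60.9 on the columnar/hypertrophic array and 57.3 on the round array, and gave no difference.

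Genes of spindle assembly and of cytokinesis lay on both sides of 0. Among the 6 spindle genes, Dlgap5 (0.29), Hmmr (0.27), Tpx2 (0.20) and Nusap1 (0.04) lay above 0, and Ckap2 (-0.33) and Aspm (-0.24) below, Aspm above 0 with equal medians. Dlgap5, encoding HURP of the kinetochore fibres, had signals of 405 on the columnar/hypertrophic array and 331 on the round array. The second probe set of Dlgap5 gave -0.25, a bound because its columnar/hypertrophic signal was under the floor. The mean over the probe sets of Dlgap5 was 0.02. The 3 other probe sets of Tpx2, encoding a protein that activates Aurora A on the spindle, gave -0.06, -0.06 and -0.25. Hmmr, the gene of a spindle protein also known as a hyaluronan receptor, had 1660 on the columnar/hypertrophic array and 1372 on the round array, and its 5 probe sets ran from -0.35 to 0.47. Ckap2, a microtubule-stabilising protein gene, had 1026 on the columnar/hypertrophic array and 1287 on the round array from its only probe set, and Aspm, the spindle pole gene mutated in human microcephaly, had 1304 on the columnar/hypertrophic array and 1537 on the round array, with 0.52 and -0.07 by other probe sets. No direction was settled for Tpx2, Hmmr or Aspm. The 6 genes of the central spindle and cytokinesis lay between -0.17 and 0.31. Anln, encoding anillin of the contractile ring, had 3223 on the columnar/hypertrophic array and 2905 on the round array (0.15). Prc1, which bundles midzone microtubules, gave 0.31 (-0.19 by its other probe set), the centralspindlin genes Racgap1 and Kif23 gave 0.10 (0.59 by a second probe set of Racgap1) and -0.03, the midzone kinesin gene Kif20a 0.06, and Ect2, the exchange factor gene that switches on RhoA at the division site, -0.17. No direction was settled for Prc1.

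**Figure D3:**
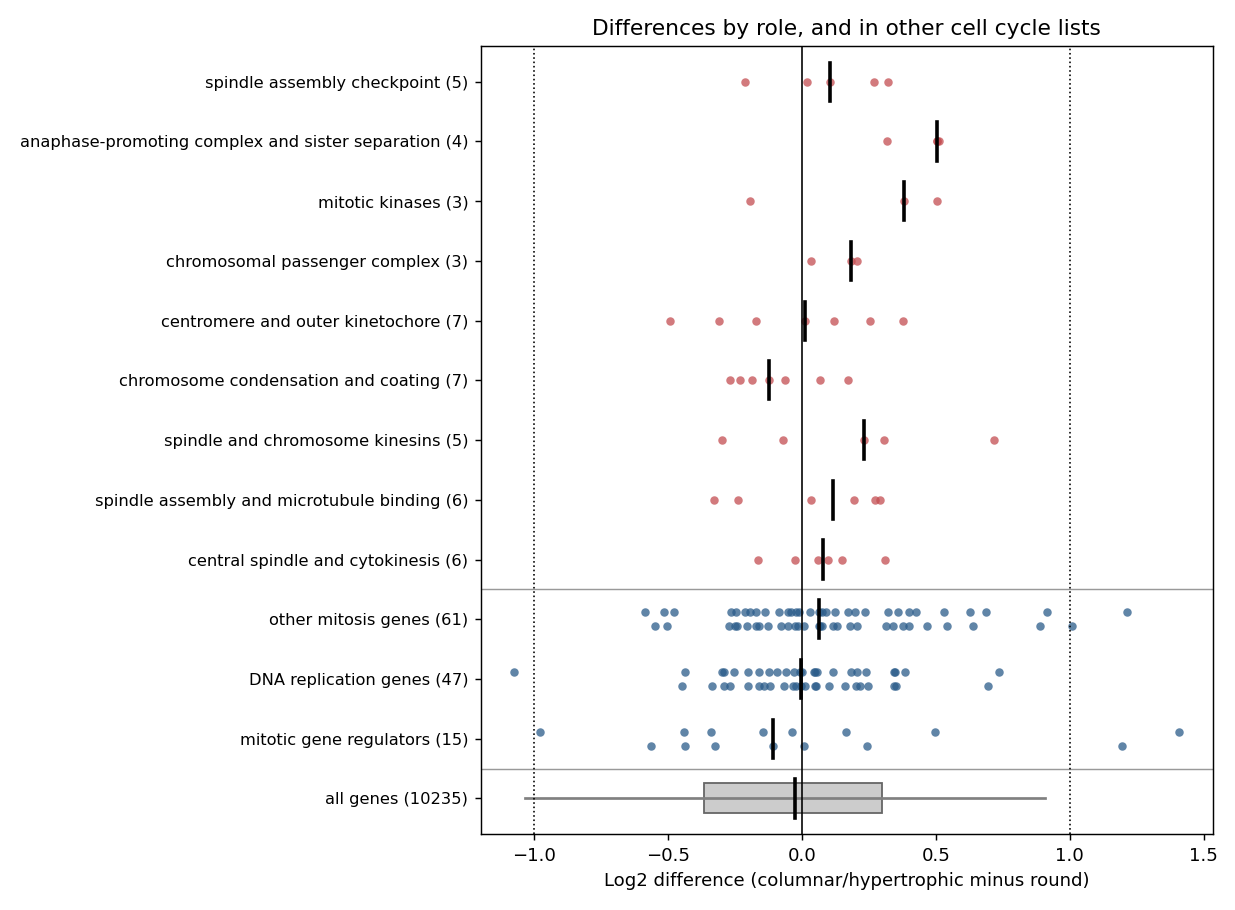
Log2 difference (horizontal, columnar/hypertrophic minus round) of genes that exceeded the floor on each array, in each role of the members (red) and in 3 other lists (blue), 1 point per gene with the number of genes in brackets, black bars for medians, dotted lines at 2-fold, and a grey box and whiskers for the middle 50% and 90% of all genes. The genes that open anaphase (median 0.51) stand at the right of the roles and those of condensation (-0.12, above 0 with equal medians) at the left, while Pmf1 (1.21), Trip13 (1.01), Tyms (-1.07), Cdkn1a (1.41) and Rb1 (1.20) pass 2-fold in the other lists.

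The probe sets of a gene gave a check within the same arrays. Of the 109 probe sets, 93 exceeded the floor on each array and 11 on neither, and the median of the 93 was 0.08. Differences past 2-fold upwards were found for 3 probe sets (a probe set of Cenpe and a pair of Smc2, of which 1 was a bound) and past 2-fold downwards for 1 (Ncapd2). None of these was the brightest of its gene. The share of all probe sets of the series past 2-fold is not given here. By the brightest probe sets, 4.31% of all measured genes were at least 2-fold higher and 6.37% lower. Several probe sets above the floor were available for 28 members, and their differences had the same sign in 13 and both signs in 15. The SD within a member was 0.44, close to the 0.37 over all genes and wider than the 0.27 between members. The span within a gene passed 1 for Smc2, Cenpf and Pttg1. The shares of all genes with both signs, or with such a span, are not given here. For the other 18 measured members, 1 probe set was above the floor, so that no such check was available, and these included Kif4, Ube2c, Aurka, Ndc80 and Mki67.

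**Figure D4:**
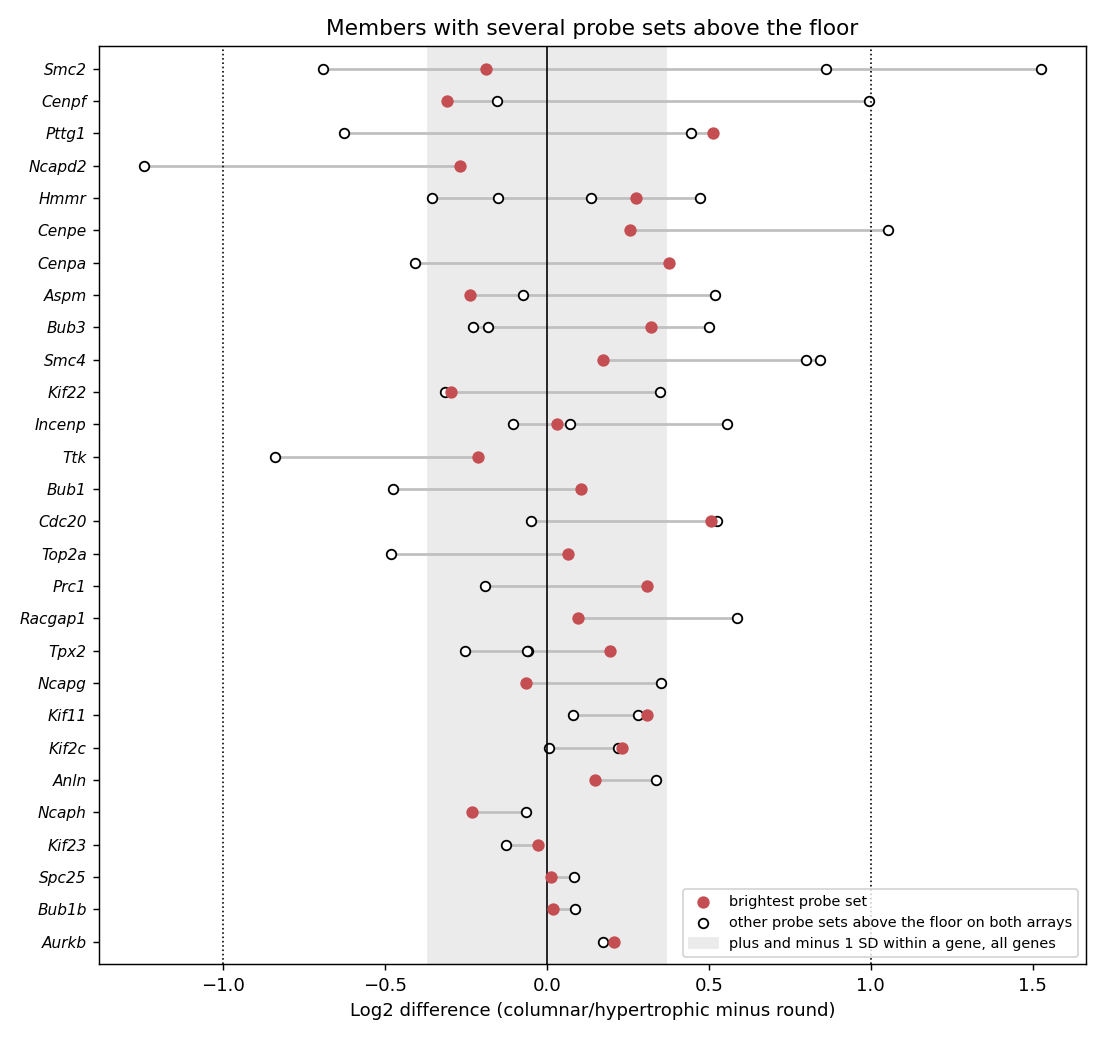
Log2 difference (horizontal, columnar/hypertrophic minus round) of every probe set that exceeded the floor on each array, for the 28 members with several, widest span at the top, with the brightest probe set in red, the others open, a grey band for 1 SD within a gene (0.37) on each side of 0, and dotted lines at 2-fold. Smc2 spans from -0.69 to 1.52, whereas the probe sets of Aurkb, Bub1b and Spc25 nearly coincide.

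Other genes of mitosis, DNA replication and mitotic gene control were set beside the members. Of 66 other mitosis genes, 61 were measured, and 2 passed 2-fold upwards (4.31% of all measured genes did) and 0 downwards (6.37% did). These were Pmf1, encoding a subunit of the MIS12 complex of the kinetochore, with 1396 on the columnar/hypertrophic array and 602 on the round array, and Trip13, encoding the ATPase that disassembles checkpoint complexes, with 1602 on the columnar/hypertrophic array and 797 on the round array. A second probe set of Trip13 gave 1.15, and the other of Pmf1 was under the floor on both arrays. The lowest was Psrc1, a spindle protein gene, with 651 on the columnar/hypertrophic array and 977 on the round array (-0.59). The median of this list was 0.06. Cdk1, the kinase gene of mitotic entry, had 5419 on the columnar/hypertrophic array and 4112 on the round array (0.40), and its cyclin genes Ccnb2 and Ccna2 gave 0.38 and 0.06. The 47 measured DNA replication genes had a median of 0.00, and Tyms, the thymidylate synthase gene, alone passed 2-fold, with 108 on the columnar/hypertrophic array and 228 on the round array (-1.07), both near the floor. Recql4, a replication helicase gene, had the highest difference (0.74, with 181 on the columnar/hypertrophic array and 108 on the round array).

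Regulators of mitotic genes were spread more widely than the members, and about as widely as all genes. Of 16 measured regulators, 2 passed 2-fold upwards (4.31% of all measured genes did) and 0 downwards (6.37% did). Cdkn1a, encoding the CDK inhibitor p21, had 990 on the columnar/hypertrophic array and 373 on the round array (1.41), and a second probe set had 886 and 134 (2.73). Rb1, the retinoblastoma gene, had 702 on the columnar/hypertrophic array and 306 on the round array (1.20), and its other probe set was under the floor. Rbl2, its relative that joins MuvB in resting cells, had 435 on the columnar/hypertrophic array and 857 on the round array, 1.97-fold lower, and -0.92 by its second probe set. Of the activators, Foxm1 had 284 on the columnar/hypertrophic array and 385 on the round array (-0.44). Other measured probe sets of Foxm1 gave 0.10 and 0.41, the latter a bound because its round signal was under the floor. Mybl2, the B-MYB gene, had 302 on the columnar/hypertrophic array and 214 on the round array (0.50). E2f4 exceeded the floor on the round array alone, so the SD covers the other 15 regulators. The SD of the differences was 0.64 in this list and 0.65 over all genes. It was 0.38 in the other mitosis genes, 0.30 in the replication genes and 0.27 in the members. None of these differences was tested.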

How the data were processed

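The deposited values are intensities, 1 linear MAS5 signal per probe set of an Affymetrix mouse genome array, made by the authors from biotin-labelled cRNA. MAS5 is named in the submitters' processing notes, and its version is not given in the sources used here. The study's methods name RMA, but these values were linear and had a mean of 500.0 on both arrays once 2% of probe sets were trimmed from each end, as MAS5 scaling gives. The median signal was 105 on the columnar/hypertrophic array and 128 on the round array. MAS5 signals of dim genes are noisy, and a common mean assumes equal total signal.

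Probe sets were named from GEO's platform annotation, and 932 that name several genes were left out. Lower signals were set to the floor of 100.5 ahead of the log2 step, and each gene was represented by its brightest probe set (mean of log2 signals). Signals of different probe sets were not compared as levels. No test was possible with 1 array in each group, so differences were called at 2-fold or 1.5-fold, and precision is limited by having 2 arrays. The steps were tested on simulated data with planted changes larger than the difference of any member. That test does not cover small differences or their signs. Python 3.11.15 with pandas 2.3.3, statsmodels 0.14.6 (lowess, span 0.3) and matplotlib 3.10.9 was used.

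Members and lists were chosen with earlier results of these data known. All members may be named. Signals were printed for those with the highest and lowest differences, at the brightest and dimmest ends, under the floor or with discordant probe sets, and for some others. From the other lists, genes past 2-fold and the extremes were named. Cdk1, Ccnb2, Ccna2, Foxm1, Mybl2, Csf1r, Cd68, Ctsk, Lum, Acta1 and Ckm were added once their values were known. Other scalings, floors and choices of probe set were tried.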

Additional observations from a re-analysis of the deposited data

How the results depend on the processing

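In the 8 alternatives run, no member passed 2-fold in either direction, and Kif4 had the highest difference (0.72 to 0.996). With equal medians the median was 0.38 for the members, 0.34 for the other mitosis genes, 0.28 for the replication genes and 0.15 for the regulators. Under that scaling 11 members were at least 1.5-fold higher, as were 23.2% of all measured genes. Averaging the probe sets of each gene gave 3 members at least 1.5-fold higher (Kif4, Cenpe and Smc4) and 1 lower (Ncapd2, -0.76). The shares of all genes under averaging are not given here. By the brightest probe sets, 11.7% of all measured genes were at least 1.5-fold higher and 15.8% lower. With averaging, 7 of 46 single members moved by more than the SD within a gene. Without probe sets ending in _x_at or _s_at, 3 of 45 did so (Bub3, Kif22 and Prc1, each with the other sign). Averaging turned the sign of 8 members (Aspm, Bub1, Cenpa, Cenpf, Ncapg, Smc2, Top2a and Tpx2) and equal medians of 12, while the floors at the 90th and 99th percentiles turned 0. No paired analysis was possible because each group is 1 array. Signals near the floor, as for Tyms and Recql4, limit what small differences can show.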
